A study of Mus musculus with 6 samples.

Results

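The constitutive proteasome subunit genes were followed in the ventral lumbar spinal cord of SOD1G93A mice given AAV-NDNF or AAV-GFP. They were chosen by symbol, as every gene named Psm, one of the letters a to g and a number, without the interferon-inducible Psmb8, Psmb9 and Psmb10 and without pseudogenes, whose mean over the 6 libraries was at least 10 normalized counts. The symbols matched 45 of the 28162 genes in the table, and 43 passed. The lowest member was Psmg3, with a mean of 39.2 in AAV-GFP libraries. Just below the limit was Psma8, a testis form of an alpha subunit with a mean of 7.78, and far below it was Psmb11, the thymus form of a catalytic subunit with a mean of 0.149. All 43 members were among the 17480 genes tested.

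Both groups carried the SOD1G93A transgene, a mutant superoxide dismutase 1 that gives mice a motor neuron disease and makes them a model of amyotrophic lateral sclerosis. An adeno-associated virus (AAV) for NDNF, neuron-derived neurotrophic factor, was injected into the intrathecal space of 1 group at postnatal day 74. An AAV for green fluorescent protein (GFP) was injected into the control group at the same age, and the cord was taken at day 104 (n = 3 libraries in each group, called biological replicates in the labels). Nothing in the sources used here gives the vectors' promoters, serotype or dose or the animals' sex, and no animals without the transgene or without an injection were analysed here.

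The proteasome is the barrel-shaped protease that degrades proteins tagged with ubiquitin. Its core particle is built of stacked rings of alpha subunits (Psma genes) and beta subunits (Psmb genes), and some beta subunits hold the catalytic threonines. A regulatory cap on the core binds ubiquitinated proteins, removes the ubiquitin and threads the protein in. The cap has a base, with a ring of ATPases (Psmc genes) and scaffold subunits, and a lid of further Psmd subunits. Misfolded SOD1 is a proteasome substrate, and ubiquitin-bearing inclusions in motor neurons are a hallmark of the disease. By class, the members comprised 14 core genes (7 alpha and 7 beta), 17 cap genes (6 ATPases, 3 other base subunits and 8 lid subunits), 5 genes for alternative activators and an inhibitor, and 7 genes for assembly chaperones. Psmd5, Psmd9 and Psmd10 bear subunit names but are assembly chaperones, and were counted as such.

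The libraries held 15335789 to 20060987 reads, of which 50622 to 64331 (0.299% to 0.397%) fell on the 43 members. The member with the fewest reads in any library had 29. Ndnf stood at 128 to 171.4 normalized counts in AAV-GFP libraries and at 5286, 7077 and 673.7 in AAV-NDNF libraries 1 to 3, so each treated library lay above the controls. Neuronal, motor neuron, astrocyte and oligodendrocyte markers were all detected in all libraries. AAV-GFP library 2 held the fewest dorsal horn neuron transcripts (a sum of 705.6 normalized counts over 8 markers, against 1337 to 2675 elsewhere). The same library had the highest marker sums for oligodendrocytes (699140, against 504977 to 563952 elsewhere) and astrocytes (204940, against 138398 to 164157). In whole tissue, fewer cells of a type and less RNA per cell cannot be told apart.

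Promoters were examined because NFE2L1 and NFE2L2, transcription factors that raise proteasome genes together when the proteasome is inhibited or cells are oxidized, bind the antioxidant response element. RefSeq promoters (GRCm38.p6, the build called mm10; 250 bases before to 50 after the start) were found for 36 of 43 members, in 39 entries. The core of that element (TGACNNNGC, either strand) lay in 6 of the 39 entries (15.4%), against 12.4% of all 32851 promoters of the same length. The 6 genes were Psmc6, an ATPase of the base, Psmd12, a lid subunit, the activator Psme4, the chaperone Psmd9, and the catalytic subunits Psmb6 and Psmb5, and they are shown so that the letters and their place can be compared. The stretches around the match lie at chr14:45329574-45329660 for Psmc6, chr11:30771713-30771776 for Psme4, chr11:107479278-107479344 for Psmd12, chr5:123228104-123228189 for Psmd9 and chr11:70525293-70525356 for Psmb6, all on the plus strand, and at chr14:54617996-54618097 on the minus strand for Psmb5. They are shown 5′ to 3′ on the gene's strand, with the match in capitals. A match that ends in GTCA is on the opposite strand.
Psmc6: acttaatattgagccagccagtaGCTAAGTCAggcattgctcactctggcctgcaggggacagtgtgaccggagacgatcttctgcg
Psme4: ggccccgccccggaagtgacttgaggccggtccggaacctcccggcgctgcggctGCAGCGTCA
Psmd12: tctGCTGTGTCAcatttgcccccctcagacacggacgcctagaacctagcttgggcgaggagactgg
Psmd9: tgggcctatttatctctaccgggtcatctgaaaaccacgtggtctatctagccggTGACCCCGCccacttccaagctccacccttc
Psmb6: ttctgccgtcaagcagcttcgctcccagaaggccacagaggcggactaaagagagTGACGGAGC
Psmb5: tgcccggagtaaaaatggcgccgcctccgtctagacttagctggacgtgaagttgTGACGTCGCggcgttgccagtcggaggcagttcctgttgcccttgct

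Relative to the RefSeq start, counted as 0, the match began at −227 in Psmc6 and −247 in Psmd12, and at −47, −31, −9 and −7 in Psmb5, Psmd9, Psmb6 and Psme4. The gene models used for exon lengths can start elsewhere. That of Psme4 begins at 30771726, so its match lies inside that model. The core of ETS factor sites (GGAAG, either strand) lay in 35 of 39 entries (89.7%), against 71.4% of all promoters, and on the gene's own strand in 59.0% against 46.9%. The palindrome of nuclear respiratory factor 1 (TGCGCA) lay in 6 entries (15.4%, against 7.76%), among them those of 4 of the 11 core genes with a promoter and 1 of the 14 cap genes. The NF-Y box (CCAAT, either strand) lay in 12 entries (30.8%, against 37.4%), and on the gene's own strand in 28.2% against 21.1%. For the antioxidant response element core, the gene's own strand alone gave 7.69% against 6.38%. Matches of different motifs shared bases in 2 places, in Psma1 and Psma3. The matches are described only, and no binding was measured.

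Per kb of exon, subunits of the same particle differed in level. The core genes ranged from 508.8 normalized counts per kb (Psma3) to 1521 (Psmb7), with a median of 1009, and the cap genes from 353.6 (Psmd11, a lid subunit) to 3027 (Psmc5), with a median of 852. Psmc5, an ATPase of the base, was the most abundant member in each of the 6 libraries on this scale (2475 to 3847), and the groups overlapped. Of the 3 catalytic beta subunits, Psmb5, which cuts after hydrophobic residues, had a mean level of 517.7 per kb. Psmb6, which cuts after acidic residues, stood at 1491 and Psmb7, which cuts after basic residues, at 1521. In all libraries Psmb5 lay below both (440.6 to 684.8, against 1147 to 1993), whereas Psmb6 and Psmb7 overlapped. The activators and the inhibitor ran from 162 (Psmf1) to 712.8 per kb (Psme3), and the assembly chaperones from 44.5 (Psmg3) to 233.3 (Psmd10). Each length is that of the merged exons of the gene's transcripts in GENCODE's basic set, which leaves out some annotated transcripts. The annotation may not be the one the authors counted with, and the order of genes depends on these lengths. Psma3 (2846 bp) lay last of the alpha ring per kb and Psma6 (1148 bp) first. In controls, however, Psma3 had a mean of 1412 normalized counts and Psma6 one of 1240. Psmb7 shares 34.9% of its exon length with Nek6 on the other strand and Psmg3 26.8% with Gm26938, so their values are uncertain. Psmb5 shares 12.1% with Mir686, Psma4 9.79% with AY074887, Psmd1 9.67% with Gm21972 and Psmd13 7.64% with Sirt3.

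**Figure D1:**
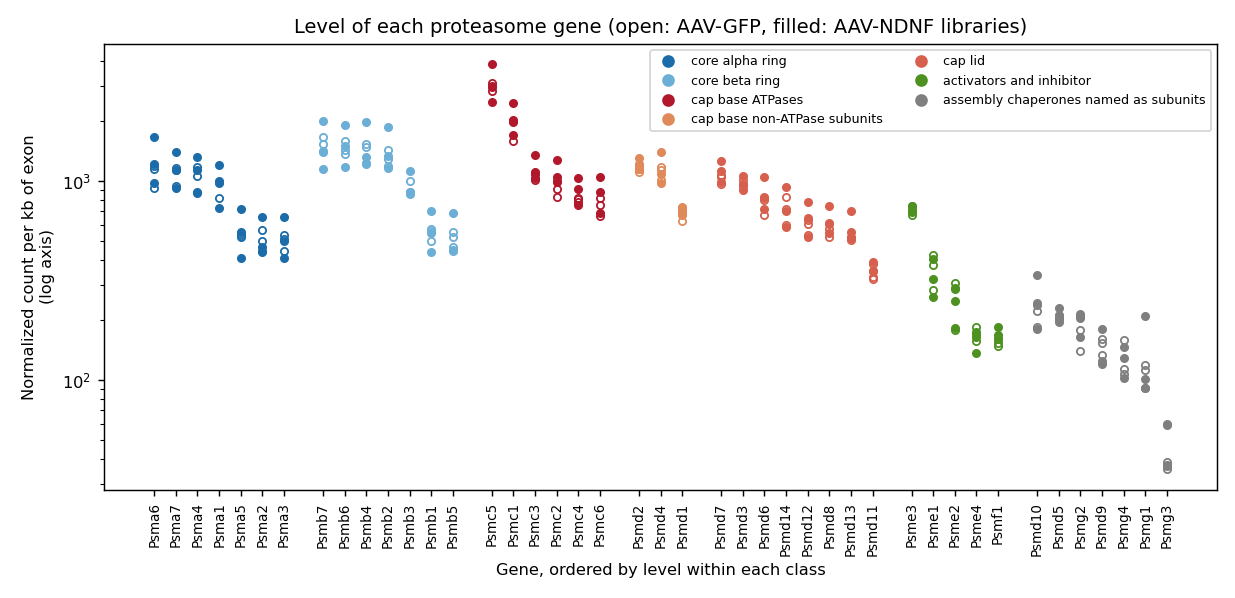
Level of each of the 43 proteasome genes in each library, in normalized counts per kb of exon (log axis), ordered within its class, with open points for AAV-GFP libraries and filled points for AAV-NDNF libraries. The core genes have means between 508.8 and 1521 per kb, the ATPase Psmc5 stands highest at 3027, and the chaperone Psmg3 lowest at 44.5.

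The comparison of AAV-NDNF with AAV-GFP asks whether proteasome transcripts differed after gene delivery. No member passed. Of the 43 members, 0 had a Benjamini-Hochberg adjusted p under 0.05 in limma (background 0% of 17480 genes), and 0 had an unadjusted p under 0.05, where 4.68% of all genes did. The smallest adjusted p among members was 0.997. In edgeR and in DESeq2 on recovered reads 0 members passed as well, and 0 had an unadjusted p under 0.05, against 4.62% and 4.43% of all genes. By the authors' deposited table, none of the 43 members (0) had an adjusted p under 0.05 (background 0.266%). The groups overlapped at each member: 0 of 43 had all AAV-NDNF libraries on the same side of all controls, against 9.75% of genes tested.

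The 95% intervals of limma give the fold changes that these libraries still allow. For core genes they reached from 0.744-fold (Psmb7) to 1.53-fold (Psma6), and for cap genes from 0.786-fold (Psmd14) to 1.46-fold (Psmc2). Log2 fold changes are differences of group means of log2(normalized count + 1), positive where AAV-NDNF was higher. It was above 0 for 37 of 43 members (background 50.1% of genes tested), with a median of 0.07 beside 0.00 over all genes tested. That share depended on single libraries: 16 of 43 members were above 0 without AAV-NDNF library 3 (median −0.05), and 23 of 43 without AAV-GFP library 2. AAV-NDNF library 3 was also the treated library with the least Ndnf, 673.7 normalized counts against 5286 and 7077 in libraries 1 and 2. Whether member levels went with the amount of Ndnf was not tested.

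**Figure D2:**
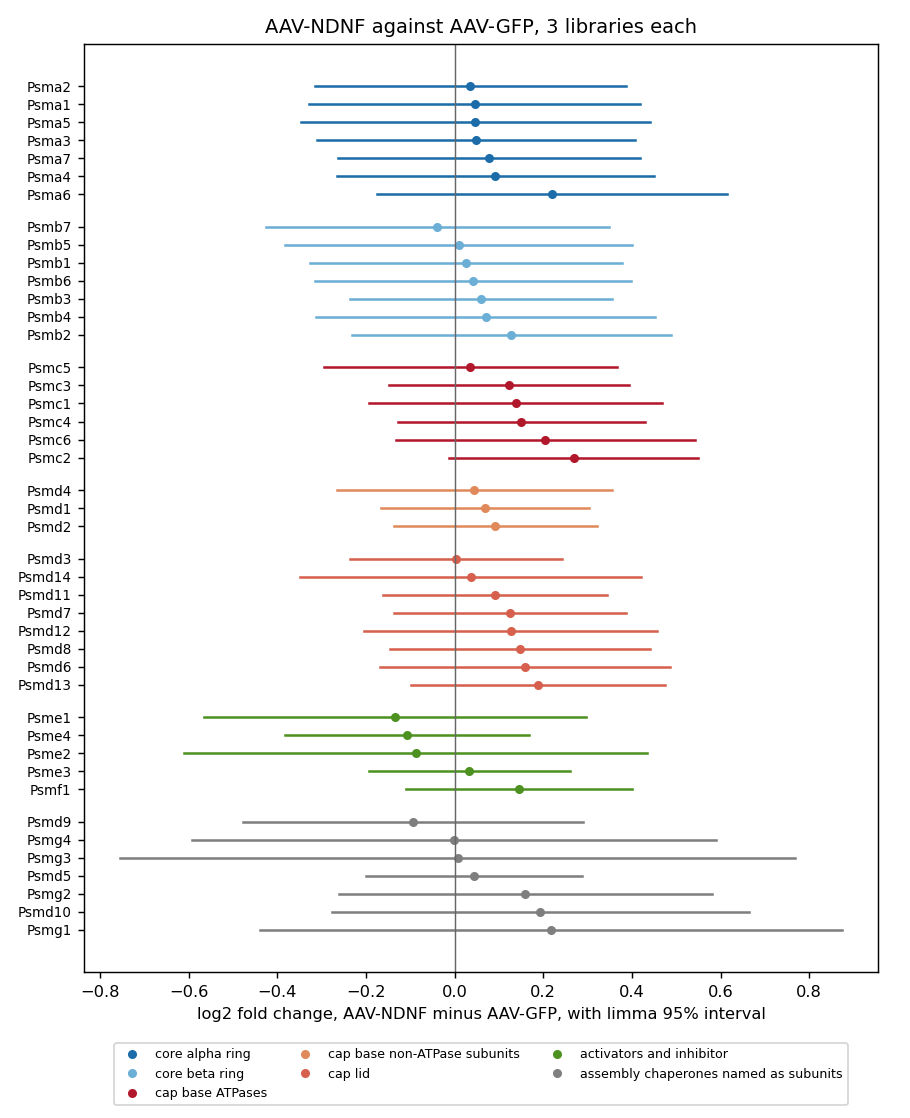
Log2 fold change of each of the 43 proteasome genes, AAV-NDNF minus AAV-GFP (3 libraries each), with its limma 95% interval, grouped by class. Each interval contains 0; that of Psmc2 (−0.01 to 0.55) comes nearest to leaving it out.

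Core genes were nearly level between the groups, with 13 of 14 above 0 and a median log2 fold change of 0.05. The direction turned without AAV-NDNF library 3, where 1 of 14 was above 0 (median −0.13), and without AAV-GFP library 2, where 4 of 14 were (median −0.03). For the alpha ring, whose amino-terminal tails gate the entry to the barrel, the median log2 fold change over 7 genes was 0.05. Psma6 had the largest, 0.22 (SE 0.18): it read 1358, 1049 and 1314 in AAV-GFP libraries 1 to 3 and 1121, 1393 and 1893 in AAV-NDNF libraries 1 to 3 (chromosome 12, 55384222 to 55418454, plus strand, mm10). AAV-NDNF library 3 was the highest of the 6 and AAV-NDNF library 1 lay below 2 controls. Psma4 read 1357, 1016 and 1225 against 1014, 1311 and 1537 (0.09), and Psma7, which is the most abundant alpha subunit per kb after Psma6, read 1338, 1114 and 1366 against 1087, 1333 and 1649 (0.08). In both, the AAV-NDNF group held the lowest and the highest library.

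In the beta ring the median was 0.04 over 7 genes. The catalytic Psmb5 (chromosome 14, 54614119 to 54618022, minus strand, mm10) read 495, 415 and 468 in the AAV-GFP libraries and 396, 402 and 616 in the AAV-NDNF libraries, a log2 fold change of 0.01 (SE 0.18). Only its AAV-NDNF library 3 lay above the controls. Psmb6 read 1266, 1082 and 1141 against 939, 1189 and 1524 (0.04), and Psmb7 read 1915, 1617 and 1769.9 against 1331, 1642 and 2312 (−0.04). Psmb7 was the only core gene below 0. The structural beta subunits Psmb2 and Psmb3 had the smallest p-values of the ring. Psmb2 was 1116 ± 99.4 in controls and 1242 ± 313 after AAV-NDNF (SD, n = 3), and Psmb3 was 698.2 ± 56.2 against 731.1 ± 109 (SD, n = 3).

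Cap genes had slightly larger values. All 17 were above 0, with a median log2 fold change of 0.13, and without AAV-NDNF library 3 11 of 17 were (median 0.02). The cap parts Sem1 (log2 fold change −0.05) and Adrm1 (0.003) lack a Psm symbol and are not among the 17. Among the ATPases, which unfold substrates, Psmc2 came nearest to the threshold (chromosome 5, 21785283 to 21803787, plus strand, mm10). It read 1777, 1479.6 and 1616 in the AAV-GFP libraries and 1757, 1863 and 2269.6 in the AAV-NDNF libraries (log2 fold change 0.27, SE 0.13, limma adjusted p = 0.997). AAV-NDNF libraries 2 and 3 lay above all controls and library 1 just below AAV-GFP library 1. Psmc6 read 1821, 1478 and 1692 against 1532, 1956 and 2324 (0.20, SE 0.15), with AAV-NDNF library 1 below 2 controls.

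Of the scaffolds of the base, Psmd2 was 3395 ± 119 in controls and 3621 ± 233 after AAV-NDNF (SD, n = 3), and Psmd1 was 2108 ± 157 against 2209 ± 83.2 (SD, n = 3). Psmd4, a ubiquitin receptor, read 2152, 1843 and 2083 against 1789.8, 1978 and 2561 (0.04). In the lid, Psmd13 (chromosome 7, 140881968 to 140898643, plus strand, mm10) read 1033, 1001 and 1026 against 1020.2, 1103 and 1396 (0.19, SE 0.13). Its controls lay within a narrow band that AAV-NDNF library 1 shared. Psmd8, another lid subunit, was 1251 ± 96.5 against 1395 ± 226 (SD, n = 3). Psmd14, the metalloprotease that cuts ubiquitin chains off the substrate, read 1106, 922 and 1281 against 906, 1081 and 1437 (0.04), again with the AAV-NDNF group holding both the lowest and the highest library.

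Core and cap were then set against each other. The core median minus the cap median of log2 fold changes was −0.08, and the difference was not tested. By library, core minus cap of the median deviation from the control mean was 0.09, −0.06 and −0.01 in AAV-GFP libraries 1 to 3 and −0.18, −0.09 and 0.02 in AAV-NDNF libraries 1 to 3. The groups overlapped, since AAV-NDNF library 3 lay among the controls. The ratio of summed core to summed cap levels per kb was 0.824, 0.762 and 0.792 in the AAV-GFP libraries and 0.714, 0.761 and 0.839 in the AAV-NDNF libraries. Its mean was 0.793 ± 0.0312 in controls and 0.771 ± 0.0631 after AAV-NDNF (SD, n = 3). Without AAV-NDNF library 3 the core minus cap median was −0.16, and without AAV-NDNF library 1 it was 5.27e-06.

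The larger differences lay between libraries of the same group. AAV-NDNF library 3 was the highest of the 6 for 34 of 43 members (background 26.4% of genes tested), for all 14 core genes and for 15 of 17 cap genes; the exceptions were the scaffold Psmd1 and the lid subunit Psmd11. AAV-NDNF library 1 was the lowest for 21 of 43 (background 17.7%) and for 11 of 14 core genes, and AAV-GFP library 2 was the lowest for 14 of 43 (background 20.2%). Within AAV-NDNF, library 3 over library 1 was a median of 1.61-fold for core genes (1.27 to 1.76), 1.37-fold for cap genes (0.975 to 1.59) and 0.997-fold over the genes tested that had no library at 0. Libraries 3 and 1 are the extremes of most core genes, so the value over all genes is not a like measure. The highest AAV-NDNF library over the lowest was a median of 1.61-fold for core genes, 1.37-fold for cap genes and 1.35-fold over all those genes. The highest control over the lowest was a median of 1.19-fold over the 43 members and 1.26-fold over all those genes. The spread was wider in AAV-NDNF than in AAV-GFP libraries for 36 of 43 members (83.7%), against 60.6% of all genes.

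**Figure D3:**
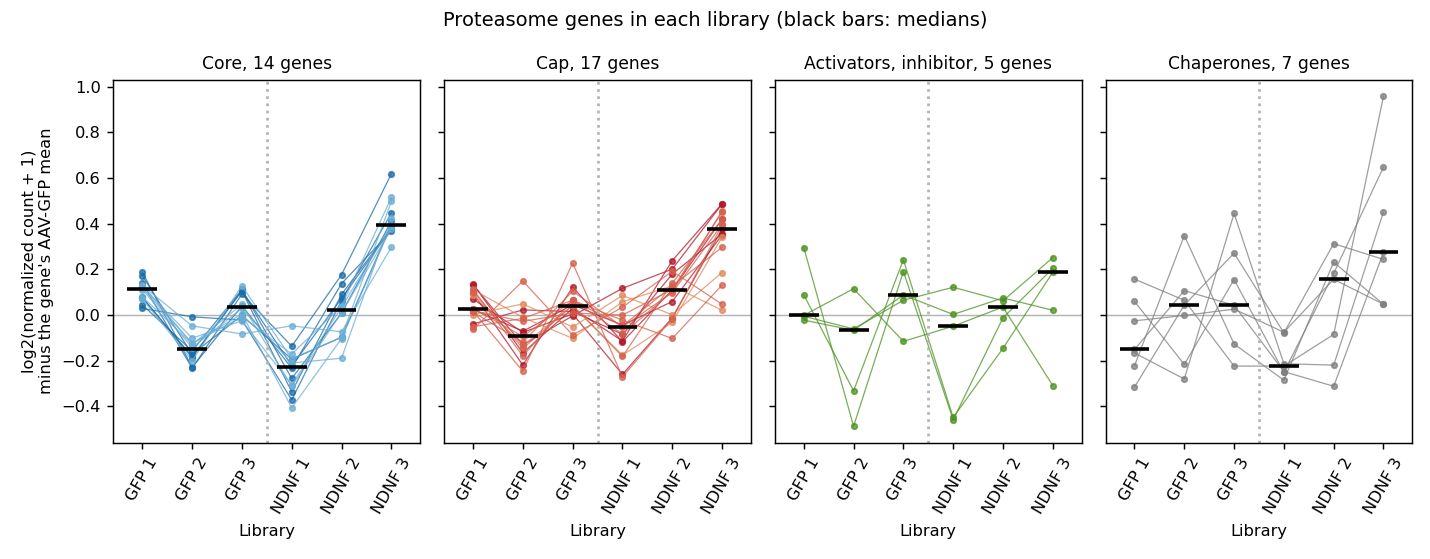
Each proteasome gene's log2(normalized count + 1) minus its own AAV-GFP mean, in the 6 libraries, for the 14 core, 17 cap, 5 activator and inhibitor and 7 chaperone genes; lines join the values of 1 gene and black bars are medians. Core genes move together, with medians from −0.23 in AAV-NDNF library 1 to 0.39 in AAV-NDNF library 3.

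Other transcripts moved with these libraries. The cytosolic ribosomal protein genes (74 of 78 tested) had median deviations of 0.14, −0.20 and 0.06 in AAV-GFP libraries 1 to 3 and −0.46, −0.12 and 0.38 in AAV-NDNF libraries 1 to 3, the same lowest and highest library as the core. Their summed level was 155483 to 197988 in controls and 133374 to 231132 after AAV-NDNF, and at most 2 of the 78 were at 0 in a library. Mitochondrially encoded transcripts (23 of 24 tested) took 6.75%, 5.28% and 7.26% of reads in AAV-GFP libraries 1 to 3 and 5.54%, 7.66% and 7.94% in AAV-NDNF libraries 1 to 3. AAV-NDNF library 2 was thus close to library 3 in these transcripts, but not in the core, where its median deviation was 0.02. The summed level of 8 neuron markers, none at 0, was 159415 to 166328 in controls and 166330 to 194647 after AAV-NDNF, highest in library 3. By median deviation the groups overlapped, with AAV-NDNF library 1 (0.05) below AAV-GFP library 3 (0.07). The summed level of 8 microglia markers, none at 0, was 15706 to 16288 against 11578 to 13122. The part of these transcripts in the proteasome values was not tested.

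**Figure D4:**
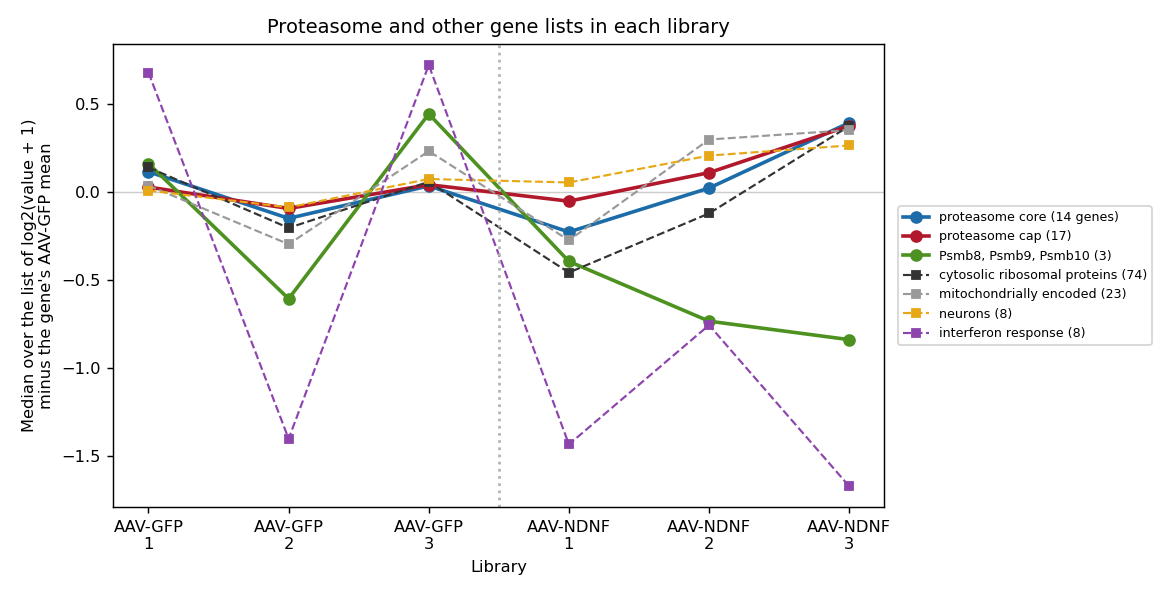
Median over each list of log2(value + 1) minus the gene's AAV-GFP mean, by library, for the proteasome core and cap, the inducible core subunits and 4 other lists. Core (−0.23 and 0.39 in AAV-NDNF libraries 1 and 3) and ribosomal protein genes (−0.46 and 0.38) share their lowest and highest library, whereas the interferon list is high in AAV-GFP libraries 1 and 3 only.

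Exon length also went with the difference between AAV-NDNF libraries 3 and 1. Over all genes tested the median log2 ratio was 0.26 for exon lengths under 1000 bp, 0.31 from 1000 to 2000 bp, 0.13 from 2000 to 3000 bp, −0.06 from 3000 to 5000 bp and −0.28 above. For members it was 0.66 (7 genes), 0.62 (20), 0.45 (11) and 0.13 (4) in the first 4 of these bins, and the single longer member, Psme4 with 6491 bp, stood at −0.26. Spearman's rho between exon length and the ratio was −0.53 across the 43 members and −0.37 across 17201 genes; these are genes of the same 2 libraries and not independent replicates. Within the core it was 0.12 over 14 genes, and within the cap it was −0.54 over 17 genes. The part of length in these values was not tested.

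**Figure D5:**
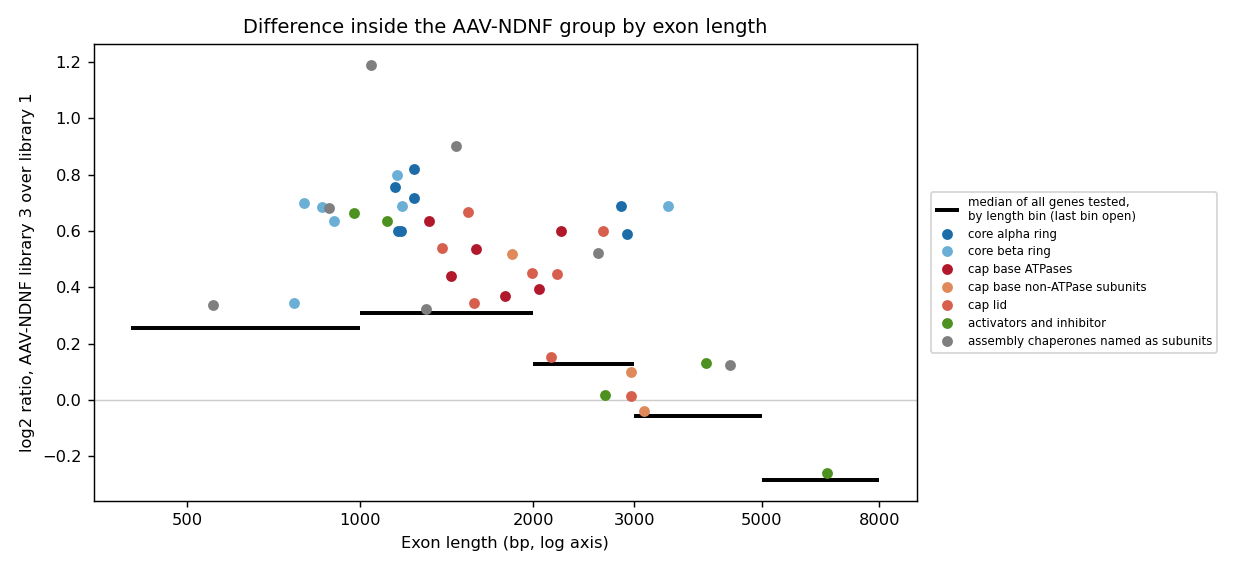
Log2 ratio of AAV-NDNF library 3 over library 1 against exon length in bp (log axis) for the 43 proteasome genes, with the median of all genes tested in each length bin as black bars. Members under 2000 bp lie above the bars of 0.26 and 0.31, and the longest, Psme4 with 6491 bp, lies beside the bar of −0.28.

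Among the activators, Psme1 and Psme2, which form the interferon-inducible activator ring, were highest in AAV-GFP libraries rather than in AAV-NDNF library 3. The same was so for the other activators, Psme3 and Psme4, and for the chaperone Psmg4. Psme1 read 421, 315 and 469 in the AAV-GFP libraries and 290.2, 358 and 451 in the AAV-NDNF libraries (log2 fold change −0.14, SE 0.20). Psme2 read 300.0, 174 and 279 against 177, 242 and 282 (−0.09, SE 0.24), an uncertain value because Psme2b, a near-identical copy outside the rule, can share its reads. Both were low in AAV-GFP library 2 and AAV-NDNF library 1. The summed level of 8 interferon response genes, none at 0, was 5827, 1672 and 6182 in AAV-GFP libraries 1 to 3 and 1489, 2286 and 1371 in AAV-NDNF libraries 1 to 3. AAV-NDNF library 3 thus had the lowest interferon sum but not low Psme1 or Psme2.

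Psme3, the nuclear activator, read 1848, 1791 and 1994 against 1879.8, 1977 and 1904 and was among the steadiest members. Psme4, the large single-chain activator, read 1097, 1189 and 1014 against 1061, 1125 and 886 (−0.11). It was the only member lowest in AAV-NDNF library 3 (background 26.3%). Psmf1, first described as an inhibitor of the core, read 612, 588 and 642 against 668, 641 and 731 (0.15, SE 0.12), with 1 AAV-NDNF library inside the control range. The assembly chaperones were the least abundant class per kb, with a median log2 fold change of 0.04. Psmd10 (gankyrin), a chaperone of the base, was 315.2 ± 41.0 in controls and 370.3 ± 115 after AAV-NDNF, and Psmg2, a chaperone of the alpha ring, was 227.7 ± 45.6 against 252.8 ± 35.2 (SD, n = 3).

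The inducible core subunits replace the catalytic ones under interferon. Psmb8, which replaces Psmb5, read 284, 120.2 and 313 in the AAV-GFP libraries and 124, 124 and 123 in the AAV-NDNF libraries (log2 fold change −0.83, limma adjusted p = 0.955), with AAV-GFP library 2 below all AAV-NDNF libraries. Without AAV-GFP library 2 it passed (−1.26, limma adjusted p = 0.0336), where 43 of 17480 genes did. It also passed in all 6 libraries with library weights (−1.12, limma-voom adjusted p = 0.0478), where 165 genes did. Those weights gave AAV-GFP library 2 only 0.442, against 0.407 to 2.46 for the others. Without AAV-GFP library 1 or 3 it did not pass (−0.65 and −0.58). Psmb9 was 90.9 ± 31.4 against 60.6 ± 20.5 and Psmb10 was 437.4 ± 114 against 388.2 ± 88.8 (SD, n = 3), and neither passed. Whether inducible and constitutive genes differed from each other was not tested.

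The wider pathway was read from lists of genes that build, control or feed the proteasome. None of its genes passed over all genes in limma, which called 0 of 17480. Maff and Uchl5 were the only ones outside the inducible subunits with an unadjusted p under 0.05, where 3.53% of all genes had one and were lower, as Maff was, and 1.15% had one and were higher, as Uchl5 was. Nfe2l1, the transcription factor that raises subunit genes when proteolysis is short, read 7172, 7990.1 and 7324 against 8126, 7207 and 6844 (−0.02), with AAV-NDNF library 3 the lowest. Maff, a small Maf protein that pairs with NFE2L1 and NFE2L2 at DNA, was 131.9 ± 5.08 in controls and 84.9 ± 16.0 after AAV-NDNF (SD, n = 3). Its log2 fold change was −0.65 (SE 0.22, limma adjusted p = 0.849). Its AAV-NDNF libraries all lay below the controls (background 5.50% of genes tested). Mafg, of the same family, was 1533 ± 92.7 against 1384 ± 158 (SD, n = 3). Over this control list 7 of 9 genes were below 0 (median −0.05).

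Genes that act on ubiquitin at the proteasome lay mostly above 0 (10 of 12, median 0.13). Uchl5, a deubiquitinase docked on the cap, read 929, 695 and 849 against 876, 1073 and 1196 (0.34, SE 0.15, limma adjusted p = 0.997), and the groups overlapped. Ube3a, a ubiquitin ligase that binds the cap, read 2019, 1869 and 2247 against 2309, 2490.1 and 2296 (0.21), with all AAV-NDNF libraries higher. That was so for 2 of the 12 genes of this list (background 4.26%). Ubb, a ubiquitin gene, was 10581 ± 633 against 11733 ± 2163 (SD, n = 3). Among further parts and assembly factors, 6 of 8 were above 0 (median 0.01). Pomp, the maturation factor of the core, read 1390.0, 1082 and 1248 against 937, 1246 and 1639 (0.01), with the same lowest and highest library as most core genes. Akirin2, which carries proteasomes into the nucleus, was 509.4 ± 30.2 against 607.7 ± 127, and Txnl1, a thioredoxin on the cap, was 1349 ± 106 against 1457 ± 244 (SD, n = 3). Of the segregase that extracts substrates for the proteasome, Vcp was 5969 ± 59.3 against 6252 ± 283 and its cofactor Faf1 633.5 ± 52.2 against 718.2 ± 61.6 (SD, n = 3). All AAV-NDNF libraries lay above the controls for Vcp, as for 1 of the 6 genes of its list (background 4.26%). The gap was narrow: AAV-NDNF library 1 read 6041 and AAV-GFP library 3 read 6037. Of the 6 genes of the segregase list, 4 were above 0 (median 0.02).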

How the data were processed

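Bulk RNA was sequenced from 6 libraries, called biological replicates in the labels; no shared litter or batch is stated, and p-values measure the spread between these libraries. Reads were trimmed, aligned and counted with cutadapt, HISAT2 and HTSeq on mm10 and compared with DESeq2, per the submitters' processing notes, without roles or versions. The authors deposited normalized counts (a signal in counts divided by a library factor), from which whole reads were recovered for 100% of values (tolerance 0.001). The authors also deposited log2 fold changes, a score (the test statistic), p-values and adjusted p-values. The annotation and strand setting of the counting are not given in the sources used here.

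The 17480 of 28162 genes that reached 10 normalized counts in 3 or more libraries were tested on log2(value + 1) with limma 3.58.1 in R 4.3.3 (trended, robust variances, two-sided) and Benjamini-Hochberg adjustment at 0.05. On recovered reads edgeR 4.0.16 called 0 genes and DESeq2 1.42.0 called 55. Exon lengths and gene positions are from the basic set of GENCODE's mouse annotation of mm10, and promoters from RefSeq GRCm38.p6. Scripts were tested on simulated data. The alternatives were other scalings, filters and pseudocounts, count models, library weights, a replicate block and leaving out each library.

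The genes given with values were the pair with the smallest limma p in each class and pathway list, the catalytic subunits, and Psma7, Psmc2, Psmd4, Psmd14, Psme1 to Psme4, Psmf1, Psmb8 to Psmb10, Nfe2l1, Pomp and Ndnf. Psmc5, Psma3, Psmd11 and Psmg3 were named after their values were seen, as extremes of level or library order; Psmb5 and Psmb6 were added to the promoters shown because they are catalytic. The values of 1 gene that this rule names are not reported here. Members and lists were chosen with earlier results of these data known.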

Additional observations from a re-analysis of the deposited data

How the results depend on the processing

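The count of members called was 0 under all alternatives run. The count at an unadjusted p under 0.05 was 1 under upper-quartile scaling (Psmc2) and ranged from 0 to 5 when 1 library was left out; the 5, Psma6, Psmc2, Psmc4, Psmc6 and Psmd10, came without AAV-NDNF library 1. With library weights (limma-voom), 22 of 43 members were above 0 (2 of 14 core genes and 13 of 17 cap genes; core median −0.05, cap median 0.05). Among the genes whose fold changes were chosen for naming, the log2 fold change turned direction for Psma4 (−0.0038), Psma7 (−0.012), Psmb2 (−0.0070), Psmb3 (−0.072), Psmb5 (−0.19), Psmb6 (−0.042), Psmd4 (−0.070), Psmd14 (−0.082), Psme4 (0.0027) and Pomp (−0.10). Leaving out 1 library at a time turned the log2 fold change of several genes, which ranged from −0.047 to 0.25 for Psma4, −0.075 to 0.23 for Psma7, −0.065 to 0.28 for Psmb2, −0.060 to 0.13 for Psmb3, −0.20 to 0.12 for Psmb5, −0.14 to 0.21 for Psmb6 and −0.25 to 0.14 for Psmb7. The range was −0.10 to 0.15 for Psmd4, −0.034 to 0.42 for Psmd10, −0.14 to 0.19 for Psmd14, −0.30 to 0.021 for Psme1, −0.33 to 0.10 for Psme2 and −7.68e-05 to 0.077 for Psme3. Outside the members it was −0.37 to 0.013 for Psmb10, −0.092 to 0.032 for Nfe2l1, −0.19 to 0.21 for Pomp and −0.0018 to 0.24 for Txnl1. The cause was not tested. The median over members ranged from −0.05 without AAV-NDNF library 3 to 0.20 without AAV-NDNF library 1. The share of member promoters with the ETS core fell to 59.0% on the gene's own strand alone, where fewer positions are searched. Over all promoters it fell from 71.4% to 46.9%. No clear pairing of libraries by replicate number was seen (correlations of deviations −0.09, 0.05 and 0.08). Of 6 libraries, 2 correlated best with their own number. With 3 libraries a group these values cannot decide whether libraries were paired. The fit with a replicate block called 0 members and 6 genes in all, with the same member median of 0.07. With 3 libraries a group, precision is limited to the limma intervals given above.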
